A study of Homo sapiens with 4 samples.

Results

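The early response to an siRNA against FAT4 was described by setting the library of A673 cells taken 24 h after transfection with the FAT4 siRNA beside the library taken 24 h after a control siRNA. These are 2 of the 4 libraries of the series. The other 2 hold the same siRNAs at 48 h and share no library with the 24 h pair. All 4 came from cells grown in DMEM with 10% fetal bovine serum and transfected with the lipid reagent RNAiMAX, and the control is labelled a scrambled siRNA. Whether 1 or several siRNAs against FAT4 were used, and whether the libraries came from separate cultures, is not given in the sources used here. Each siRNA and time has 1 library, so no value has a replicate behind it, nothing was tested, and an effect of the siRNA cannot be told apart from a difference between 2 dishes of cells.

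A673 is an established Ewing sarcoma line driven by the fusion transcription factor EWSR1-FLI1, which activates one set of genes and represses another, largely mesenchymal, set. FAT4 encodes a giant atypical cadherin that binds Dachsous proteins on neighbouring cells. In animal tissues the Fat and Dachsous pair is known for planar cell polarity, the alignment of cells within a sheet, and for input to the Hippo kinases, which hold back the coactivators YAP and TAZ and the TEAD factors they work with. An siRNA loads into the RNA interference complex and directs cleavage of the matching mRNA. Transcripts that match only its seed can be lowered as well, and double-stranded RNA can be sensed by the cell's interferon system.

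Gene counts totalled 22625833 in the control library and 15196813 in the FAT4 siRNA library at 24 h. A count of 0 allowed a level of up to 0.134 and 0.203 CPM, the worth of 3 counts. CPM stands here for counts scaled by TMM to library size. Ratios of FAT4 siRNA to control are given on the log2 scale, where 0 means equal levels, and an interval below or above 1 refers to the plain ratio. Among 8 markers of the Ewing line, the summed level was 1089 CPM with control and 1075 CPM with FAT4 siRNA, and CD99 was listed at 0 in both. Whether that 0 reflects absent RNA or uncounted reads was not tested. PRKCB was the largest part of the sum, at 538 and 502 CPM. Single markers differed both ways, with NKX2-2 at 76.4 and 52.4 CPM and LIPI at 109 and 155 CPM. All 5 muscle markers were at 0. The epithelial markers EPCAM and CDH1 had at most 1 count each, while the keratins KRT8 and KRT18 made up nearly all of an epithelial sum of 204 and 208 CPM. Fibroblast markers summed to 71.8 and 58.2 CPM, mostly from PDGFRB and COL1A1, and leukocyte markers to 17.7 and 13.2 CPM, mostly from CD68. Endothelial markers summed to 2.06 and 1.08 CPM. In bulk RNA, fewer cells that express a gene and less of its RNA per cell cannot be told apart.

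The targeted transcript was lower in the library labelled FAT4 siRNA. FAT4 had 3678 counts (165 CPM) with control and 1061 counts (71.8 CPM) with the FAT4 siRNA, a log2 ratio of -1.20 with a 95% counting interval of -1.30 to -1.10. That is a level 2.29-fold lower, so FAT4 mRNA was reduced and not absent. Of the 20 lowest ratios described below, 17 were further down than FAT4. Each interval here is an exact Clopper-Pearson interval of the ratio of 2 counts. It covers counting error only, and PCR reads without molecular identifiers are not independent molecules.

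Other Fat and Dachsous genes sat close to equal. FAT1 had 380 and 386 CPM, a log2 ratio of 0.02 (interval -0.03 to 0.07). FAT3 had 28.3 and 29.3 CPM, and its ratio was 0.05 (-0.13 to 0.23). DCHS1, a Dachsous ligand, had 59.5 and 57.6 CPM, a ratio of -0.05 (-0.17 to 0.08). FJX1, a relative of the fly kinase four-jointed, had 63.3 and 54.7 CPM and a ratio of -0.21 (-0.34 to -0.08). Of these 4 relatives, only FJX1 had an interval off 1, and none was past 1.5-fold. The correction for GC content described below turned the sign of DCHS1 (0.31) and FJX1 (0.09). After it 2 of the 4, DCHS1 and FAT1 (0.07), had intervals above 1 and 0 had intervals below. The core polarity genes held no large difference. Of 16 tested, 7 had intervals below 1 and 1 had an interval above 1, against 31.9% and 30.0% of all genes, and none was past 1.5-fold. The lowest were the Wnt receptor ROR2 at -0.37 and the membrane protein VANGL2 at -0.37, and the highest was VANGL1 at 0.34. After the GC correction the balance was the other way, with 4 intervals below 1 and 6 above. The median of these 16 was -0.18, and -0.06 after the correction.

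Most transcripts differed little between the 2 libraries. Of 16686 genes with any count in the 24 h pair, 10595 had a mean of 5 CPM or more over the 4 libraries and were compared. The log2 ratio had a median of -0.01 and a middle 50% from -0.21 to 0.19. A gene is called higher or lower here when its ratio is past 1.5-fold and its counting interval excludes 1. By that rule 278 genes (2.62% of those tested) were higher and 486 (4.59%) were lower. Past 2-fold there were 26 higher and 56 lower genes. Counting intervals alone were above 1 for 3183 genes (30.0%) and below 1 for 3381 (31.9%). An interval that excludes 1 is therefore common, and carries little weight on its own.

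Where the calls fell depended on abundance. Among the 1060 genes of 5 to 10 CPM the counting interval reached a median of 0.382 log2 units to either side, and 49 were higher and 147 lower. In the 231 genes of at least 500 CPM the same half-width was 0.0353, and 5 were higher and 2 lower. Between these ends stood 145 higher and 249 lower among 4433 genes of 10 to 50 CPM, and 79 and 88 among 4871 genes of 50 to 500 CPM. The excess of lower over higher calls lay mostly at low abundance.

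**Figure D1:**
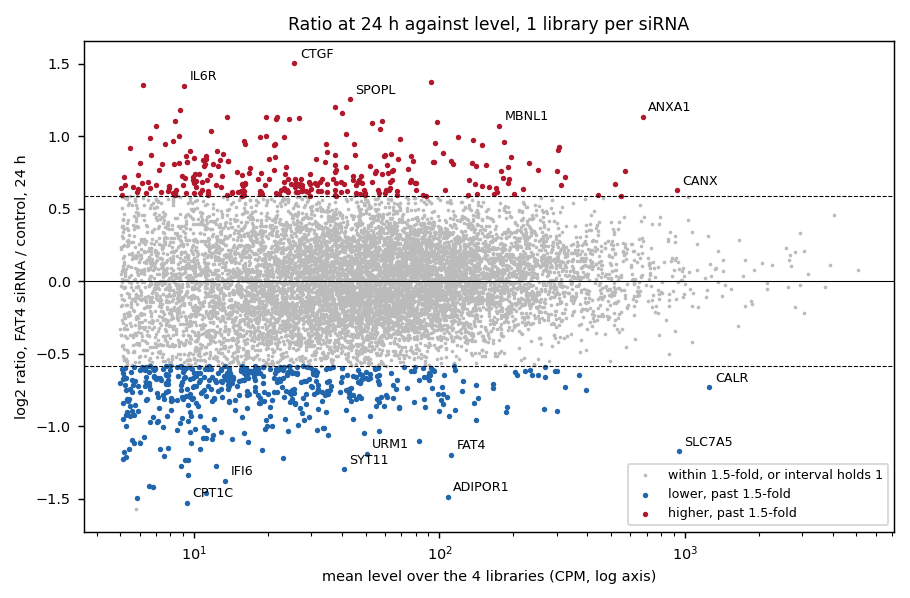
Log2 ratio of FAT4 siRNA to control at 24 h against the mean level over the 4 libraries (CPM, log axis), 1 point per gene, with dashed lines at 1.5-fold. The 278 higher genes (red) and 486 lower genes (blue) thin out towards high abundance, where SLC7A5 and ANXA1 stand apart.

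The 24 h ratios went with the base composition of the transcript. Of the tested genes, 98.08% matched a GENCODE 29 transcript. In quartiles of GC content the median log2 ratio was 0.20 in the lowest quartile (31.49% to 42.27% GC), then 0.08, -0.06 and, in the highest (56.72% to 74.48%), -0.24. The lowest quartile held 171 higher and 40 lower genes, and the highest held 6 higher and 275 lower. Across 10392 genes, which are not independent replicates, Spearman's coefficient of GC content with the log2 ratio came to -0.573 for the 24 h pair and -0.232 for the 48 h pair. Transcript length had a coefficient of 0.074. What lies behind the trend was not tested. When the ratios were recentred by splines on GC content and length, 163 genes were higher and 311 lower. Of the higher genes with a transcript, 124 of 271 were called both ways, and of the lower 236 of 482. List medians moved by more than 0.1 in 16 of 46 lists. The ratios below are uncorrected. For many genes whose call the correction ends or adds, the change is given beside them, but not for all. After it 2847 genes had intervals above 1 and 2438 below.

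**Figure D2:**
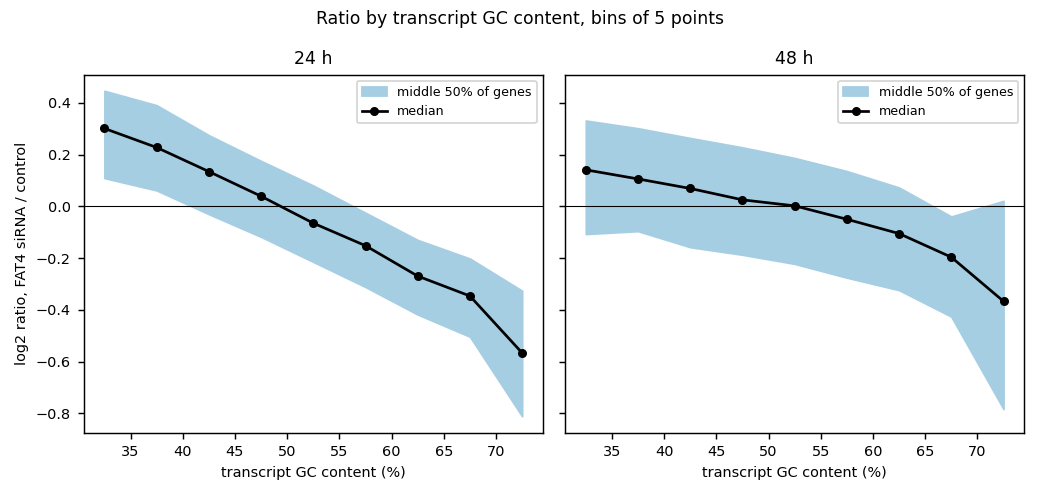
Median log2 ratio of FAT4 siRNA to control by transcript GC content in bins of 5 percentage points that hold at least 20 genes (line), with the middle 50% of genes shaded, at 24 h (left) and 48 h (right). The median falls from left to right at both times, and the Spearman coefficient was larger in size for the 24 h pair (-0.573) than for the 48 h pair (-0.232).

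Among abundant transcripts 7 genes were past the limit, and 3 of them stayed past it after the GC correction. SLC7A5, the light chain of the main transporter for leucine and other large amino acids, had 28517 counts (1277 CPM) with control and 8377 (567 CPM) with FAT4 siRNA, a ratio of -1.17 (-1.21 to -1.14). ANXA1, a calcium-dependent membrane-binding protein that dampens inflammation, had 10332 counts (463 CPM) and 14995 counts (1015 CPM), a ratio of 1.13 (1.10 to 1.17). CALR, the lectin chaperone of the endoplasmic reticulum, went the other way from its membrane-bound partner CANX. CALR had 1778 and 1069 CPM, a ratio of -0.73 (-0.76 to -0.71). CANX had 750 and 1159 CPM, a ratio of 0.63 (0.60 to 0.66). The kinesin-binding protein KTN1 at 0.76, the histone chaperone NAP1L1 at 0.67 and the mucin-like surface protein TMEM123 at 0.59 completed the 7 calls at this abundance. The scaffold AHNAK, at 983 and 1468 CPM, came to 0.58, just short of the 1.5-fold limit of 0.585 on the log2 scale. After the GC correction SLC7A5, ANXA1 and CALR were past the limit and AHNAK came past it at 0.70, while CANX (0.49), KTN1 (0.54), NAP1L1 (0.53) and TMEM123 (0.39) were not.

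The 20 highest ratios with an interval off 1 ran from 1.07 to 1.504. CTGF, a secreted matricellular protein and a standard readout of YAP, TAZ and TEAD, led them with 326 counts (14.6 CPM) in control and 612 (41.4 CPM) in FAT4 siRNA, a ratio of 1.504 (1.31 to 1.70). This was the highest ratio of all genes tested. IL6R, the binding chain for interleukin 6, had 155 and 261 counts (6.94 and 17.7 CPM), a ratio of 1.35 (1.06 to 1.64). TNFRSF12A, the receptor for the cytokine TWEAK, had 714 and 1058 counts (32.0 and 71.6 CPM), a ratio of 1.16 (1.02 to 1.30). Both cytokine receptors are single-pass membrane proteins.

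Further genes with high ratios have roles in ubiquitin pathways and membranes, and were picked out after their values were seen. SPOPL, an adaptor of cullin 3 ubiquitin ligases, had 25.6 and 61.0 CPM, a ratio of 1.254 (1.10 to 1.41). OTUD6B, a deubiquitinase, had 25.1 and 57.8 CPM, a ratio of 1.20 (1.05 to 1.36). MTMR6, a phosphatase of phosphoinositides, had 65.4 and 140 CPM, a ratio of 1.09 (0.997 to 1.19). GOLT1B, a Golgi transport protein just outside the 20, had 39.6 and 81.9 CPM and a ratio of 1.05 (0.92 to 1.18). LAMP2, an abundant glycoprotein of the lysosomal membrane, had 75.7 and 151 CPM and a ratio of 0.99 (0.90 to 1.08). In each of these genes the FAT4 siRNA library held more raw counts than the control library, although it was the shallower one.

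The remaining leaders were a mixed set. The general transcription factor subunit TAF13 stood at 1.13, the RNA polymerase III subunit POLR3G at 1.12, the vitamin E transfer protein relative TTPAL at 1.12 and the GTPase-activating protein ARHGAP18 at 1.09. MDFIC was at 1.10, TMEM189, a lipid desaturase with a read-through neighbour that makes its counting uncertain, at 1.12, and TMEM64 at 1.07. The zinc finger genes ZNF35 and ZNF100 stood at 1.18 and 1.14, and MIR17HG, the host transcript of a microRNA cluster, at 1.13. LOX, the lysyl oxidase that crosslinks collagen, had only 106 and 151 counts and a ratio of 1.11 (0.74 to 1.48). TMEM45A rested on 26 and 44 counts, and its interval ran from 0.62 to 2.11.

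At the other end the 20 lowest ratios with an interval off 1 ran from -1.53 to -1.18. ADIPOR1, a receptor for the fat hormone adiponectin, was the best counted of them with 3414 counts (153 CPM) in control and 805 (54.5 CPM) in FAT4 siRNA, a ratio of -1.49 (-1.601 to -1.38). In this pair of libraries it stood lower than FAT4 itself. Their intervals do not overlap, but these cover counting error only and leave out variation between cultures. URM1, a ubiquitin-like protein that supplies sulfur for tRNA modification, had 84.1 and 36.8 CPM, a ratio of -1.19 (-1.33 to -1.05). CHST1, a sulfotransferase of keratan sulfate, had 34.7 and 14.9 CPM, a ratio of -1.22 (-1.44 to -1.001).

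Several of the lowest genes are best known from neurons. CPT1C, a brain form of carnitine palmitoyltransferase, had 244 and 56 counts (10.9 and 3.79 CPM), a ratio of -1.53 (-1.97 to -1.10). PCSK1N, an inhibitor of a prohormone convertase, had 200 and 47 counts, a ratio of -1.49 (-1.98 to -1.03). SYT11, a synaptotagmin of vesicle membranes, had 1075 and 289 counts (48.1 and 19.6 CPM), a ratio of -1.30 (-1.49 to -1.11). The guanine nucleotide exchange factor MCF2L was at -1.34, the microtubule-associated FSD1 at -1.27, the neuronal splicing factor NOVA1 at -1.41, tau (MAPT) at -1.23 and the synaptic adhesion gene LRRC4B at -1.18. Most of these had under 350 counts in control, and their intervals span up to about 1 log2 unit. The list of neuronal and vesicle genes was chosen with earlier results of these data known, and it holds CPT1C, PCSK1N, SYT11, MCF2L and FSD1. Its shares are therefore a description. Of its 29 tested genes, 8 were lower and 1 was higher, against 4.59% and 2.62% of all genes. The higher one was the secretogranin SCG2, at 55.4 and 89.8 CPM and a ratio of 0.70. The median of the list was -0.23, and -0.12 after the GC correction. The same 8 were then lower, SCG2 was inside the limit (0.56) and VGF came past it as higher. Other neural genes of the list were near equal, among them SYT1 with 162 CPM in both libraries and UCHL1 with 700 and 635 CPM (-0.14).

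The rest of the 20 lowest have varied roles. They were the Wnt antagonist FRZB at -1.42 (186 and 46 counts), the mitochondrial adenylate kinase AK4 at -1.46, the aggrecanase ADAMTS4 at -1.28, the GTPase-activating protein ARAP3 at -1.24, the transferrin relative MFI2 at -1.21, and TMEM160 and FAM195A at -1.23 and -1.21. IFI6, an interferon-induced mitochondrial protein, is described with its group below. All 20 highest and all 20 lowest genes had a transcript for the GC correction, and each of the 40 remained past 1.5-fold in the same direction after it.

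**Figure D3:**
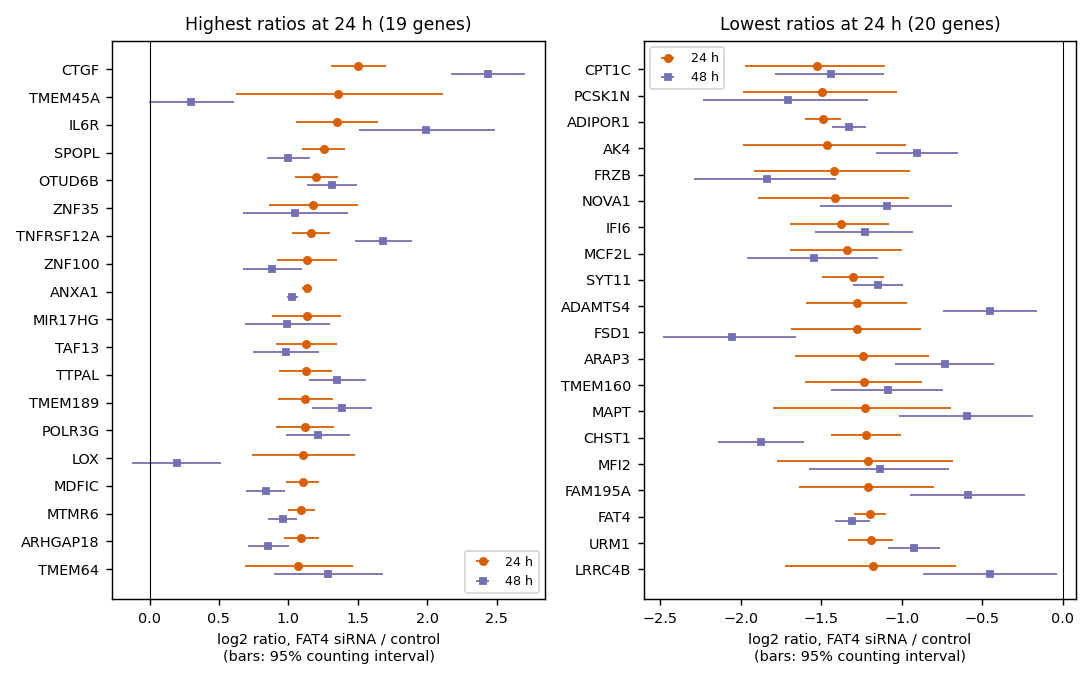
Log2 ratios of FAT4 siRNA to control for 19 of the 20 highest (left) and the 20 lowest (right) genes at 24 h (circles), with the ratio of the same gene at 48 h (squares) and 95% counting intervals as bars. At 48 h, 18 of the 20 highest and 18 of the 20 lowest genes were past the limit again, all but TMEM45A, LOX, ADAMTS4 and LRRC4B.

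YAP and TAZ target genes had the highest median of the 46 lists with at least 10 tested members. Of 19 tested, 6 were higher and 0 lower, against 2.62% and 4.59% of all genes, 11 had intervals above 1 and 2 below, and the median was 0.25, or 0.28 after the GC correction. The correction left 5 of the 6 past the limit, ended the call of F3 (0.55) and brought AMOTL2 past it (0.72). Beside CTGF and TNFRSF12A these were CYR61, a matricellular relative of CTGF, at 30.4 and 58.5 CPM and a ratio of 0.95 (0.80 to 1.09). NT5E, the surface enzyme that makes adenosine, had 81.5 and 144 CPM and a ratio of 0.82 (0.73 to 0.91). FSTL1, a secreted glycoprotein, had 261 and 441 CPM and a ratio of 0.76 (0.71 to 0.81). Tissue factor, F3, had 177 and 187 counts and a ratio of 0.67 (0.37 to 0.98). The targets AMOTL2 and LATS2, which feed back on the Hippo pathway, differed from each other, since AMOTL2 stood at 0.54 (0.46 to 0.62) and LATS2 at -0.11 (-0.33 to 0.10). LPAR1 was the lowest of the list, at 49.6 and 36.3 CPM and -0.45. Within the list, 5 matricellular and secreted members had a median of 0.76 and 10 cytoskeletal and signalling members a median of 0.14.

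Genes of the Hippo pathway itself split. Of 17 tested, 1 was higher and 0 lower, against 2.62% and 4.59% of all genes. Intervals were above 1 for 4 and below 1 for 7, against 30.0% and 31.9% of all genes. The higher one was TEAD1, a DNA-binding partner of YAP, at 177 and 311 CPM and a ratio of 0.81 (0.75 to 0.88). YAP1 had 274 and 336 CPM, a ratio of 0.29 (0.24 to 0.35), and WWTR1, which encodes TAZ, had 178 and 165 CPM, a ratio of -0.11 (-0.18 to -0.04). TEAD2 stood at -0.27. Of the upstream parts, the scaffold FRMD6 was at 0.56 and the membrane scaffold NF2 at -0.39 (-0.57 to -0.21), while the kinases STK4 and LATS1 were at 0.02 and -0.24.

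The promoter of CTGF holds the short core that TEAD factors bind, and is shown because CTGF had the highest ratio. The window runs from 250 bases before to 50 bases after the start of the gene, from RefSeq on GRCh38.p14, and CTGF (CCN2 in RefSeq) lies on the minus strand of chromosome 6. Capitals mark GGAATG, searched on both strands.
CTGF, chr6:131951323-131951622: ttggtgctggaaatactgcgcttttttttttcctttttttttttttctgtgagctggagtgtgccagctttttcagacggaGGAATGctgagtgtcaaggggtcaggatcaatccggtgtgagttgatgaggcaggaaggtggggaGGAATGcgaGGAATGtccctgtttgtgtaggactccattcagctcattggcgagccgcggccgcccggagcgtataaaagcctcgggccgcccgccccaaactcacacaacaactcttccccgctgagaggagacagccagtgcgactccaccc
The core occurs 3 times, 169, 104 and 95 bases before the start. It was found in 14.03% of 35116 promoter windows and in 4 of the 11 target genes that matched a window. Those 4 (CTGF, AMOTL2, LATS2 and PTPN14) had a median ratio of 0.40 and the other 7 a median of 0.24. A match is a description of the letters and not of binding.

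Genes that EWSR1-FLI1 is known to repress leaned high, and those it activates did not lean either way. Of 29 tested repressed genes, 5 were higher and 0 lower, against 2.62% and 4.59% of all genes. The median was 0.15, or 0.28 after the GC correction, when the same 5 and 3 more were higher. The 5 were CTGF, CYR61, NT5E, ANXA1 and LOX, so 3 of them are on the YAP and TAZ list as well. Abundant mesenchymal members were nearer to equal. Vimentin (VIM) had 2756 and 3234 CPM and a ratio of 0.23, fibronectin (FN1) 4669 and 4934 CPM and 0.08, and the collagens COL1A1 and COL3A1 stood at -0.18 and 0.52. Of 48 tested activated genes, 2 were higher and 4 lower, against the same 2.62% and 4.59%. The higher were IL1RAP at 0.66 and PDGFC at 0.72. Among the lower were LBH at -0.62 (291 and 189 CPM), LINGO1 at -0.62 and MAPT. The median of the 48 was -0.04, or 0.02 after the correction, when 0 were higher and 1, MAPT, was lower.

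Calls among surface and matrix genes were of a few genes per list, to be read against 2.62% of all genes higher and 4.59% lower. Integrin ITGB1, the most widely shared beta chain, had 242 and 398 CPM and a ratio of 0.72 (0.66 to 0.77), and the laminin chain LAMC1 had 158 and 245 CPM and 0.64 (0.57 to 0.70). They were the 2 higher genes among 10 tested integrins and laminins, a larger share than the 2.62% of all genes. After the GC correction LAMC1 was the only one (ITGB1 0.50). Among 25 collagens and matrix enzymes, LOX was higher, and the metalloproteinase inhibitor TIMP2 (98.7 and 55.4 CPM, -0.83) and the oxidase LOXL1 (89.5 and 54.5 CPM, -0.71) were lower. After the correction LOXL1 was inside the limit (-0.33) and COL3A1 and MMP14 joined LOX, so that 3 were higher and 1 lower. Of 12 annexins and S100 genes only ANXA1 was past the limit, with ANXA5 next at 0.52. Of 18 cadherins and catenins, the nectin PVRL3 was higher at 0.73, and the catenin CTNND1 and the plaque protein PKP2 were lower at -0.70 and -0.63. PVRL3 was inside the limit after the correction, at 0.53. None of 25 actin and SRF genes was called, and after the GC correction 1 was higher, CNN2 at 0.66. The median of these 25 was -0.05 and became 0.15 after the correction, a change of sign.

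Interferon-induced genes had the lowest median of the lists. Of 32 tested, 10 were lower and 0 higher, against 4.59% and 2.62% of all genes, 22 had intervals below 1 and 1 above, and the median was -0.37, or -0.33 after the GC correction. The correction left 9 of the 10 past the limit, ended the call of ISG15 (-0.39) and added IFIT3. With a minimum mean of 20 CPM, 20 members were tested and 3 were lower. IFI6 had 440 counts (19.7 CPM) with control and 112 (7.58 CPM) with FAT4 siRNA, a ratio of -1.38 (-1.69 to -1.08). IFIT1, which binds foreign RNA ends, had 319 and 95 counts (14.3 and 6.43 CPM), a ratio of -1.15 (-1.50 to -0.82). IFI44L had 301 and 98 counts and a ratio of -1.02 (-1.37 to -0.69). ISG15, a ubiquitin-like modifier, had 913 and 374 counts (40.9 and 25.3 CPM) and a ratio of -0.69 (-0.87 to -0.52), and USP18, which removes it, stood at -0.95. All were expressed in the control library, at 13.4 CPM or more among the 10 lower genes.

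The transcription factors behind these genes were uneven. IRF9, the DNA-binding part of the interferon-activated complex, had 605 and 197 counts (27.1 and 13.3 CPM), a ratio of -1.02 (-1.26 to -0.79). IRF7 had 300 and 99 counts and a ratio of -1.004 (-1.35 to -0.67). STAT2, a partner of IRF9 in that complex, had 51.9 and 44.3 CPM and stood nearer to equal, at -0.23 (-0.37 to -0.09). PARP14, DTX3L and IFIT5, which interferon also induces, had ratios of 0.06, 0.09 and 0.05, and SP100 was the highest member at 0.58. The list thus held both strongly lower and unshifted members.

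Some sensors that feed interferon production were lower. Of 11 tested RNA and DNA sensing genes, 3 were lower and 8 had intervals below 1, against 4.59% and 31.9% of all genes. The median was -0.32, or -0.15 after the GC correction, when the same 3 were lower. TMEM173, the adaptor STING, had 947 and 340 counts (42.4 and 23.0 CPM), a ratio of -0.88 (-1.07 to -0.70). The helicase IFIH1 had 285 and 118 counts and a ratio of -0.68 (-0.999 to -0.36), and the helicase DDX58 had 674 and 281 counts and -0.67 (-0.87 to -0.46). The DNA sensor MB21D1 and the kinase TBK1 stood at 0.05 and 0.06. Among 15 MHC class I genes, 2 were lower (CALR and the immunoproteasome subunit PSMB9 at -0.59) and 12 had intervals below 1, with a median of -0.19. After the correction only CALR was lower (PSMB9 -0.48), 4 intervals were below 1 and 3 above, and the median was -0.08. In the machinery that an siRNA itself uses, TNRC6C, a scaffold of the silencing complex, was at 37.8 and 20.1 CPM and -0.91 (-1.11 to -0.72). TARBP2, a Dicer partner, was at 52.9 and 28.4 CPM and -0.90 (-1.06 to -0.74). They were the 2 lower genes of 13 tested, against 4.59% of all genes, and the median of the 13 was 0.01.

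Promoters of 3 lower interferon genes are shown because they carry the element that the interferon-activated complex reads. Capitals mark GAAANNGAA on either strand (on the opposite strand it reads as its reverse complement), in RefSeq windows of the same extent on GRCh38.p14. IFI6 lies on the minus strand, and IFIT1 and ISG15 on the plus strand.
IFI6, chr1:27672143-27672442: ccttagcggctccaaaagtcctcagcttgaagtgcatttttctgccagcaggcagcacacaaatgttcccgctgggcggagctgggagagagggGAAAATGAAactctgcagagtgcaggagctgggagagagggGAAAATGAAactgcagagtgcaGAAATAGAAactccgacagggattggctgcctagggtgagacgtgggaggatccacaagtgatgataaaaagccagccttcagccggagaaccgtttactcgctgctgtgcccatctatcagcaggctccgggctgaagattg
IFIT1, chr10:89392373-89392672: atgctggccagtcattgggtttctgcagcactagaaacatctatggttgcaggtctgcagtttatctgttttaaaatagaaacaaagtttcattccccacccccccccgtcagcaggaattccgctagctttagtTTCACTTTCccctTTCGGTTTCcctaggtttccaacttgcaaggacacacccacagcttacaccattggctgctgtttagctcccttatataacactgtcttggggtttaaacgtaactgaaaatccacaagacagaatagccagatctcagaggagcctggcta
ISG15, chr1:1013247-1013546: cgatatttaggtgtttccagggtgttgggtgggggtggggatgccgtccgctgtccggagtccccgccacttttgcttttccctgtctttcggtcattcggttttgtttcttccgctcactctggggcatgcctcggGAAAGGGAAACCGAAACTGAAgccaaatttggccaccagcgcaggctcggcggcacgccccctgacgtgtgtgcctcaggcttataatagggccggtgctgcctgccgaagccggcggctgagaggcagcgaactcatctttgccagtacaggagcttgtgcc
IFI6 holds 3 matches, IFIT1 holds 2 on the opposite strand, and ISG15 holds 3 that overlap. The element was in 8.107% of all windows and in 18 of 28 matched members (64.3%). Members with it had a median ratio of -0.43 and those without it -0.27.

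Cell death genes differed singly. Of 27 tested, 2 were higher and 4 lower, against 2.62% and 4.59% of all genes, with a median of 0.04. Among the higher genes was the survival factor BCL2, at 906 and 1090 counts (40.6 and 73.8 CPM) and a ratio of 0.86 (0.73 to 0.99). The pore-forming BAK1 was lower, at 551 and 169 counts (24.7 and 11.4 CPM) and -1.11 (-1.37 to -0.86), as was the BCL2 antagonist BAD at -0.72 (-0.89 to -0.55), the death-receptor adaptor FADD at -0.60 and the initiator CASP9 at -0.59. Of these, BAK1 and BCL2 are well away from the limit, and FADD and CASP9 are close to it. After the correction the same 2 were higher, and of the 4 lower genes only BAK1 was past the limit (BAD -0.37, FADD -0.42, CASP9 -0.49), joined by CASP1. The p53 targets gave 1 higher (CCNG1 at 0.66) and 2 lower genes (BTG2 at -0.82 and SESN1 at -0.59) of 18, and CDKN1A, the cell cycle inhibitor p21, had 28.7 and 39.9 CPM and a ratio of 0.48 (0.31 to 0.64). Corrected, CCNG1 was inside the limit (0.42) and CDKN1A past it (0.65).

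Mitotic genes leaned high together by a small amount. Of 46 tested, 35 had intervals above 1 and 1 below, against 30.0% and 31.9% of all genes, with a median of 0.24, yet only HMMR, a spindle protein, was past 1.5-fold at 61.6 and 109 CPM and 0.82 (0.72 to 0.93). CENPE and NUF2, both of the kinetochore, stood at 0.51 and 0.50, and the kinase WEE1 at 0.57. These transcripts are low in GC content, with a median of 42.2%. After the correction the median was 0.14, 29 intervals were above 1 and 3 below, HMMR was inside the limit (0.55) and WEE1 was the only call (0.61). Of 50 replication genes, 24 had intervals above 1 and 14 below, with a median of 0.09. PRIM1, the small primase subunit, was the only call at 0.60 and was lost after the correction (0.38), and the nucleotide reductase subunit RRM2 stood at 425 and 633 CPM and 0.57. Splicing factors had 24 of 32 intervals above 1 and a median of 0.17, which became 0.06 after the correction with 16 above and 11 below. Ribosome biogenesis genes had 18 of 28 above and a median of 0.15, or 0.14 corrected, and none was past the limit.

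Metabolic lists gave a few calls each, to be read against 2.62% of all genes higher and 4.59% lower. Of 26 sterol synthesis genes, 2 were lower, the reductases TM7SF2 (24.0 and 13.3 CPM, -0.85) and DHCR7 (371 and 236 CPM, -0.65), and the median of -0.19 was -0.10 after the correction, when DHCR7 was inside the limit (-0.47). HMGCS1, an early enzyme of the pathway, had 209 and 159 CPM and a ratio of -0.40. Fatty acid synthase (FASN) had 993 and 742 CPM and a ratio of -0.42, which was 0.00 after the correction. Of 31 hypoxia and glycolysis genes, 3 were lower and 0 higher. They were the MAX partner MXI1 (26.4 and 13.3 CPM, -0.99), the glycolytic regulator PFKFB4 (201 and 76 counts, -0.81) and the aldolase ALDOC (-0.68), which was inside the limit after the correction (-0.54). Intervals were below 1 for 15 of the 19 glycolysis genes and above 1 for 2, against 31.9% and 30.0% of all genes. After the correction they were below 1 for 8 and above 1 for 5. Oxidative phosphorylation genes were close to all genes, with 1 lower of 73 (UQCR10 at -0.68) and a median of -0.04.

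Amino acid supply was uneven around SLC7A5. Its heavy chain SLC3A2 had 614 and 447 CPM and a ratio of -0.46 (-0.50 to -0.42), less far down than the light chain. Of 17 tested transporters, SLC7A5, SLC43A1 (-0.67) and SLC7A8 (-0.64), all carriers of large neutral amino acids, were lower, against 4.59% of all genes. After the GC correction SLC7A5 was the only one of them past the limit (-0.90), with SLC43A1 at -0.50 and SLC7A8 at -0.54. SLC7A11, the cystine carrier that pairs with the same heavy chain, had 225 and 312 CPM and a ratio of 0.47 (0.42 to 0.53). The ATF4 targets, which respond to amino acid shortage, were flat, with 0 higher and 2 lower of 25 and a median of 0.00. The 2 were the transcription factor CEBPB (124 and 68.8 CPM, -0.85) and VLDLR, which had 84 and 37 counts. CEBPB was inside the limit after the correction, at -0.50. GDF15, a secreted stress cytokine named because of its ratio of 3.44 at 48 h, had only 19 and 13 counts at 24 h. Its 24 h ratio was 0.05, with an interval of -1.09 to 1.14.

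Signalling lists held a few calls each. The immediate early genes KLF10 (30.3 and 61.2 CPM, 1.02), JUN (36.8 and 56.0 CPM, 0.61) and FOSL2 (0.60) were higher. They were 3 of 15 tested, against 2.62% of all genes, while the list median was 0.01. ETV5, an ETS factor downstream of MAPK, was at 65.4 and 37.3 CPM and -0.81, the only call among 15 feedback genes. PIK3C2B, a class II phosphoinositide kinase, was at 25.2 and 11.2 CPM and -1.17 (-1.42 to -0.91), the only call of 17. After the correction PIK3CB of that list was lower as well, at -0.62. EPHB3 was the only call of 22 receptor tyrosine kinases, at -0.73, a share near the 4.59% of all genes, and 12 of the 22 had intervals below 1 and 1 above. After the correction EPHB3 was inside the limit (-0.43), 7 intervals were below 1 and 5 above, and the median of -0.20 was -0.07. Of 27 cytokine receptors and their signalling genes, 3 were higher, IL6R, TNFRSF12A and IL1RAP, which was inside the limit after the correction (0.55). SOCS3 came past the limit after the correction, at 0.80. In the lists of the lysosome (40 tested), ubiquitin enzymes (47) and Golgi traffic (37), 2, 3 and 3 genes were higher, led by LAMP2, SPOPL and GOLT1B, and after the correction 2, 3 and 1. These shares of higher genes are to be read against 2.62% of all genes, and the lists were chosen with earlier results of these data known. The coatomer subunit COPB1 was lower at 246 and 157 CPM and -0.65. After the correction TMED10, of the same Golgi traffic list, was lower as well, at -0.70.

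**Figure D4:**
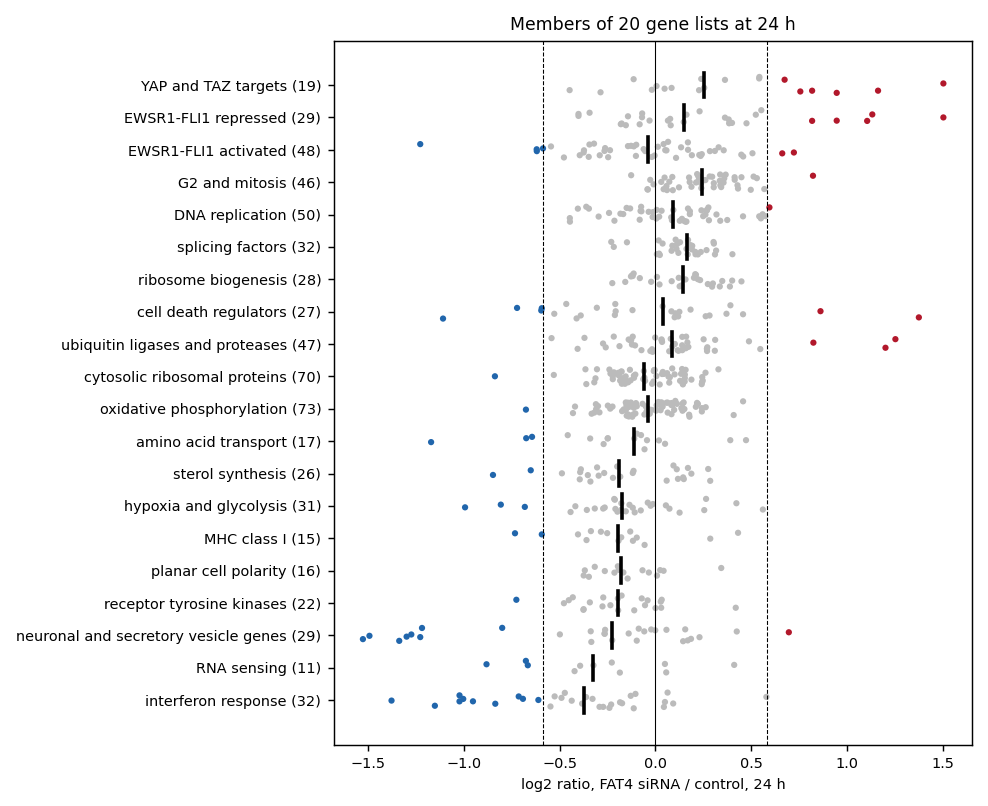
Log2 ratios at 24 h of the tested members of 20 gene lists (number tested in parentheses), with the list median as a black bar and dashed lines at 1.5-fold. Red and blue points are called higher and lower. The YAP and TAZ list has the highest median (0.25) and the interferon list the lowest (-0.37).

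Words of 7 bases in the 3' UTR were examined for both ends of the response, and these words were known from an earlier look at the same ratios, so their shares are a description. TTGGACT was in the 3' UTR of 10.93% of 9885 genes searched, of 16.56% of 471 lower genes, and of 15 of 55 genes more than 2-fold lower (27.3%). AGCCTTA was in 9.954% of genes, in 29.3% of 256 higher genes, and in 9 of 25 genes more than 2-fold higher (36.0%). Genes with either word had longer UTRs, with medians of 2960 and 2996 bases against 981 bases in genes without. With TTGGACT the median ratio was -0.05 and without it -0.01 (corrected -0.07 and 0.02). For AGCCTTA the medians were 0.11 and -0.03 (corrected 0.06 and 0.01).

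Sites in genes from the 20 lowest and 20 highest ratios show the words in place, 1 site per gene, from GENCODE 29 transcripts with capitals on the word. FAT4 itself holds TTGGACT, as do 5 of the 20 lowest genes in all. Of the 19 highest genes with a UTR to search, 7 hold AGCCTTA. The first 4 lines are lower genes and the last 4 are higher genes.
FAT4: gcttatgaTTGGACTtattttcc
NOVA1: ttttaacaTTGGACTgttatttc
URM1: gttaaaccTTGGACTagcaagta
FAM195A: gccagcatTTGGACTtttgcacc
TTPAL: atccataaAGCCTTAgccctggt
POLR3G: ataaagtaAGCCTTAgaatagaa
MTMR6: tctaagaaAGCCTTAaattccca
ARHGAP18: ctctcttaAGCCTTAaaaagtca
TTPAL holds the word at 3 places. IFIT1 and BAK1, both more than 2-fold lower, hold TTGGACT, whereas ADIPOR1, CPT1C and SLC7A5 do not. CTGF and ANXA1 do not hold AGCCTTA. No human mature miRNA in the RefSeq table had a seed complementary to either word. The siRNA sequences were not used here, and a match to them was not tested.

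The 48 h pair of libraries gave a second view of the 24 h calls. Calls at both times are uncorrected, and both pairs went with GC content in the same direction (Spearman's coefficients of -0.573 and -0.232). What that trend adds to the overlap was not tested. Of the 278 genes higher at 24 h, 161 were higher at 48 h too, 57.9% of the 24 h calls and 37.1% of the 434 (4.10% of genes) called higher at 48 h. Of the 486 lower genes, 295 were lower again, 60.7% of the 24 h calls and 40.4% of the 731 (6.90%) at 48 h. None of the 278 had a 48 h interval below 1, and 4 of the 486 had one above 1. The medians of the 24 h calls were 0.70 at 24 h and 0.63 at 48 h for higher genes, and -0.72 and -0.69 for lower genes.

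Some of the early differences were smaller or gone at 48 h. For 79 higher and 109 lower genes the 48 h ratio was nearer to 0 with the counting interval of the difference excluding 0, and for 27 and 62 it was farther away. All were chosen by their 24 h ratio, a choice that by itself favours ratios nearer to 0 at 48 h. The counts are therefore a description, and the ratios behind them are not corrected for GC content. LOX was at 1.11 and then 0.20, TMEM45A at 1.35 and 0.30, and ADAMTS4 at -1.28 and -0.45. The interferon factors IRF9 (-1.02 and -0.24) and IRF7 (-1.004 and -0.34) and the sensor IFIH1 (-0.68 and 0.05) were of this kind, while IFI6 (-1.38 and -1.23) and IFIT1 (-1.15 and -1.42) were not. The interferon signalling genes, 6 of the list, had a median of -0.62 at 24 h and -0.15 at 48 h, and the effectors -0.37 and -0.25. PSMB9 (-0.59 and 0.03) and the heme-degrading HMOX1 (-0.72 and 0.38) were lower at 24 h and not at 48 h, and both were inside the limit at 24 h after the GC correction (-0.48 and -0.55). The ferritin chain FTH1 had ratios of -0.55 and 0.01, and was past the limit at neither time. For the iron and heme genes no list was fixed, and they are named as members of the NRF2 list.

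Other ratios were larger at 48 h. CTGF went from 1.504 to 2.44, CYR61 from 0.95 to 1.68 and TNFRSF12A from 1.16 to 1.68, and the YAP and TAZ list median from 0.25 to 0.48. The immediate early list median was 0.01 at 24 h and 0.45 at 48 h. GLI1, a hedgehog target, had ratios of -0.24 and 1.04, and the stress pseudokinase TRIB3 -0.05 and 0.96. In the opposite direction, the receptor kinase RET had 114 and 81.6 CPM at 24 h (-0.48) and a ratio of -1.87 at 48 h. The ribosomal protein gene RPS29, whose pseudogenes make its count uncertain, had -0.53 and -1.96, and the transcription factor WT1 -0.52 and -1.63. These genes were chosen for the size of the difference between the times, so it is given as a description.

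**Figure D5:**
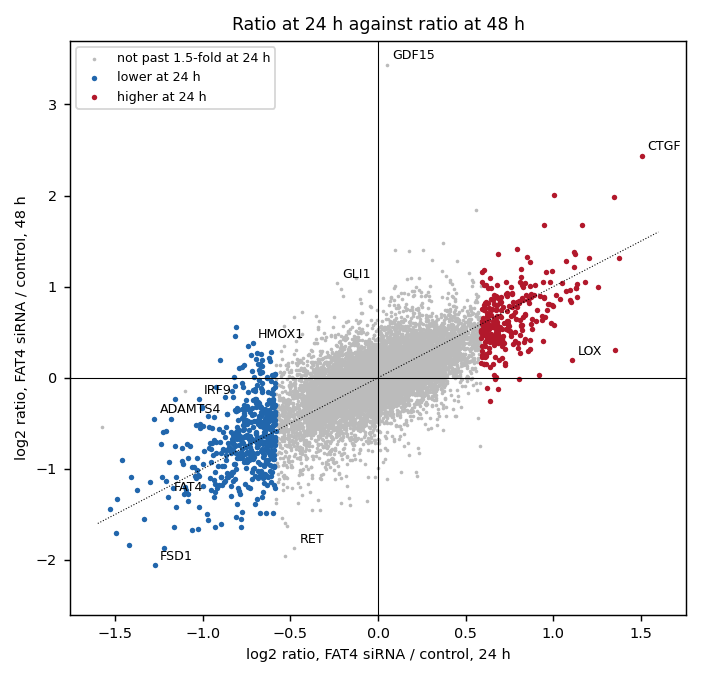
Log2 ratio of FAT4 siRNA to control at 24 h against the same ratio at 48 h for the 10595 tested genes, with calls at 24 h in red (higher) and blue (lower) and a dotted line where the ratios are equal. CTGF lies above the line, LOX below it, and GDF15 and GLI1 show a difference only on the 48 h axis.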

How the data were processed

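RNA-seq gene counts were used from A673 cells, 1 library per siRNA and time. The authors deposited raw read counts per gene symbol as whole numbers, in a separate file for each library. Cells were lysed in TRIzol and strand-specific mRNA libraries made, per the labels' protocols. CASAVA 1.8.2, TopHat2, SAMtools, HTSeq and hg19 are named in the submitters' processing notes. Tool settings, gene annotation and counting strand are not given in the sources used, so counts of overlapping, antisense or near-identical genes are uncertain. Entries that name no gene were left out, with no-feature reads at 19.48% (control) and 19.6% (FAT4 siRNA) of assignable reads at 24 h.

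Counts were scaled by TMM in edgeR 4.0.16 on genes passing filterByExpr (minimum count 10, total 15), with factors from all 4 libraries. Log2 ratios of CPM carry no pseudocount, and their 95% Clopper-Pearson intervals cover counting error only, as does the floor of 3 counts. With 1 library a side no test was run. Genes averaging 5 CPM or more were counted, and calls needed 1.5-fold and an interval excluding 1. Intervals of differences between times used a normal approximation. The counting step was tested on simulated data. GENCODE 29 transcripts gave GC content, length and 3' UTRs of at least 50 bases. Splines had 5 degrees of freedom for GC content and 4 for length. RefSeq promoter windows and miRNAs were used for sequences. Both sources are on another build than hg19, so other coordinates are not given.

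The 51 gene lists (1425 of 1444 entries matched), the words and the naming rule were chosen with earlier results of these data known. Named genes were FAT4, the 20 highest and 20 lowest ratios with intervals off 1, the 6 largest differences between times each way among genes of at least 10 CPM, up to 5 members per list by absolute ratio, and the 8 largest absolute ratios among genes of at least 500 CPM. Other list members, GDF15 and genes that went against their list were named after their values were seen. A few selected genes are not reported here. The alternatives tried were DESeq2 1.42.0 size factors, total-count scaling, 1 CPM added, other CPM minima, other folds and the GC and length correction.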

Additional observations from a re-analysis of the deposited data

Results flagged for a closer look

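For 14 named genes the counting interval lay on one side of 1 at 24 h and on the other side at 48 h. The difference between the times (48 h minus 24 h, log2) was given a counting interval and was not tested over cultures. Differences were positive, from lower at 24 h to higher at 48 h, for the membrane protein FAM171A2 (1.368), the fatty acid transporter SLC27A1 (1.283), the early-response gene IER3 (1.153), TMEM134 (1.144), AKNA (1.096), RILPL2 (0.8911), the chloride channel BEST1 (0.8415), the heat shock genes HSPA1B (0.7484) and DNAJB1 (0.4649), the receptor NOTCH3 (0.7352) and the NOTCH regulator NUMBL (0.5459). They were negative for the lipid transporter ABCA5 (-1.252), the integrin ITGA6 (-0.6192) and the annexin partner S100A10 (-0.5235). After the correction for GC content and length, 8 of the 14 still had intervals on opposite sides of 1. The 24 h interval held 1 for the other 6, and their corrected 24 h ratios were -0.51 (SLC27A1), -0.26 (FAM171A2), -0.14 (NUMBL), 0.07 (AKNA), 0.015 (NOTCH3) and -0.10 (ABCA5), the last 3 with their sign turned. HSPA1B has a near-identical copy, so its count is uncertain.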

How the results depend on the processing

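The ratio of FAT4 stayed between -1.22 and -1.18 under every alternative run. Against 278 higher and 486 lower genes, a minimum mean of 20 CPM gave 171 and 213, the GC and length correction 163 and 311, the looser fold limit 1305 and 1606, and a limit of 2-fold 26 and 56. A minimum of 1 CPM gave 740 lower genes. The minima test more or fewer genes, and the fold limits are stricter or looser by construction. DESeq2 size factors gave 302 and 450, total-count scaling 251 and 529, and 1 added CPM 231 and 390. The share of higher genes among calls was 36.39%, and 32.18% to 44.53% over the scalings, minima and correction. No named gene past the limit changed direction. Of 275 named genes, 148 moved outside their counting interval under the GC and length correction and 0 under the other settings. No paired analysis was possible because the groups share 1 replicate number at most. A fit of siRNA with the time as a block, which would take the 2 times as repeats of each other, was not run. Depth limits genes of 5 to 10 CPM, whose intervals reach a median of 0.382 log2 units to either side, and 1 library a side leaves variation between cultures unmeasured throughout.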

Other observations

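Gene families were read by symbol after their values were seen. Zinc finger genes whose symbols begin with ZNF, most of them transcription factors, leaned high at 24 h. Of 360 tested, 39 were higher and 6 lower, against 2.62% and 4.59% of all genes, 168 had intervals above 1 and 46 below, and the median was 0.19. Their transcripts have a median GC content of 44.26%. Corrected for GC content and length, the median came to 0.13, with 20 higher and 1 lower. At 48 h the median was 0.17, with 48 higher and 4 lower, against 4.10% and 6.90% of all genes at that time.

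Solute carriers (symbols beginning with SLC) leaned low. Of 170 tested, 1 was higher and 19 lower, against 2.62% and 4.59% of all genes, with a median of -0.14, or -0.10 after the correction with 1 higher and 10 lower. At 48 h, 3 were higher and 23 lower, against 4.10% and 6.90% of all genes at that time. Rab and potassium channel genes gave 0 higher calls of 46 and of 15, with 3 and 2 lower against 4.59% of all genes, and 2 and 0 lower after the correction.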
